A study of Mus musculus with 8 samples.

Results

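MicroRNA precursor genes are short genes that encode the hairpins from which microRNAs are cut. They were taken here as the gene symbols that begin with Mir and a digit or with Mirlet7, without host gene symbols, and that held at least 80 sense reads summed over 8 mouse liver RNA libraries. By that rule 136 genes were members, of 1180 microRNA symbols and 25229 genes in the tables. Of the other symbols, 633 had 0 sense reads in every library and 411 had at least 1 read but fewer than 80. The members held 57982 of the 64828 sense reads on microRNA symbols, or 89.4%. Just inside the minimum lay Mir6541 with 84 reads, Mir3073b with 83 and Mir7027 with 81, and just outside lay Mir350 with 79, Mir6399 with 76 and Mir222 with 73.

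The libraries were made from liver cells of C57BL/6 mice that differed in Adar1, the gene of an enzyme that turns adenosine into inosine in double-stranded RNA. The first group was Ifih1-/- Adar1 flox/flox Alb-Cre+ (n = 3, aged 11, 9 and 7 weeks), the second Ifih1-/- Adar1 wt/flox Alb-Cre+ (n = 2, aged 11 and 9 weeks) and the third Ifih1-/- Adar1 wt/wt Alb-Cre+ (n = 3, aged 11, 9 and 7 weeks). All groups were knockouts of Ifih1, which encodes MDA5, a sensor of double-stranded RNA, and all carried Alb-Cre, a recombinase driven by the albumin promoter and so active in hepatocytes. The cells came from a collagenase perfusion followed by low-speed pelleting and a density gradient, which enriches hepatocytes, and the total RNA was depleted of ribosomal RNA.

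A microRNA gene is transcribed as a long primary transcript, alone or within the intron of a host gene. In the nucleus Drosha and Dgcr8 cut out the hairpin, Xpo5 carries it to the cytoplasm, and Dicer1 trims it to a duplex from which an Argonaute protein keeps a single strand. Bases 2 to 8 of that strand, the seed, pair with messenger RNAs. Reads of total RNA libraries on these genes come from primary, precursor or unspliced host transcripts. Where the hairpin lies in a host exon, they can also come from the spliced host transcript. The values below are therefore not levels of mature microRNAs.

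The sequences that carry the results are shown first, from RefSeq on GRCm38.p6, 5′ to 3′, for members called in flox/flox against wt/wt in all of 19 settings, with the opposite strand of one of them, and then for members that share a seed. Of the 136 members, 126 were matched to a RefSeq hairpin or mature sequence. Some of these, such as Mir7212 and Mir1927, had a hairpin but no mature sequence. In the hairpins the capitals mark the mature microRNAs. Mir101b lies at chr19:29135279-29135375 (+), Mir7-1 at chr13:58392779-58392886 (-), Mir186 at chr3:157544279-157544349 (+) and Mir6353 at chr1:84218849-84218961 (-), each within an intron of its host. Mir682 lies between genes at chr13:75645046-75645141 (+). Mir3073a at chr12:112109238-112109322 (+) and Mir3073b at chr12:112109250-112109309 (-) are opposite strands of the same locus within an intron of Aspg.
Mir101b: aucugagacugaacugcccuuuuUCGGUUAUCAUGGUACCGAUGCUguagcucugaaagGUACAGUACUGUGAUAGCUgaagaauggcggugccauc
Mir7-1: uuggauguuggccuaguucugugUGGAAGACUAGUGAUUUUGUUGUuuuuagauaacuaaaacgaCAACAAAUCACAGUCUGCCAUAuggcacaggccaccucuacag
Mir186: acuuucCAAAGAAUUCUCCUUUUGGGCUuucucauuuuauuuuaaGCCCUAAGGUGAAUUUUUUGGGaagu
Mir6353: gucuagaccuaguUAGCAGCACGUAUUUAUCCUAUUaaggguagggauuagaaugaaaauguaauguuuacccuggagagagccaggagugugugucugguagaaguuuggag
Mir682: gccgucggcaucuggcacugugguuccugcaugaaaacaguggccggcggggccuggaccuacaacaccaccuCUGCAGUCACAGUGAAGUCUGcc
Mir3073a: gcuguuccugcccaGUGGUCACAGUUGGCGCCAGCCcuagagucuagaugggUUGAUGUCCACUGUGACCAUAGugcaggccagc
Mir3073b: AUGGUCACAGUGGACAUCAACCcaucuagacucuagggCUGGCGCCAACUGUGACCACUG

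Of the mature sequences of the members, 12 seeds were shared by at least 2 members, and 3 of these families are shown with the seed in capitals, because their members can be compared by the messenger RNAs they can pair with. Among the members with a matched sequence they had 5, 4 and 3 genes. Mir30b, a member without a matched sequence, could not be placed in a family here.
mmu-let-7a-5p of Mirlet7a-1: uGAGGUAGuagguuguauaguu
mmu-let-7c-5p of Mirlet7c-1: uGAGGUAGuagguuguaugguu
mmu-let-7d-5p of Mirlet7d: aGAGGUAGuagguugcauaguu
mmu-let-7f-5p of Mirlet7f-1: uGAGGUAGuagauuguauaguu
mmu-miR-98-5p of Mir98: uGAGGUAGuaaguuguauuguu
mmu-miR-30a-5p of Mir30a: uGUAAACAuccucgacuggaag
mmu-miR-30c-5p of Mir30c-1 and Mir30c-2: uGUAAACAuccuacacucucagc
mmu-miR-30e-5p of Mir30e: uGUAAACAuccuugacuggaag
mmu-miR-15a-5p of Mir15a: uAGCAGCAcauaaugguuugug
mmu-miR-16-5p of Mir16-1: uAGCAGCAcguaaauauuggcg
mmu-miR-6353 of Mir6353: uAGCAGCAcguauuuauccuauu

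Sense reads on genes ranged from 98337152 to 132303735 per flox/flox library, from 75875711 to 96405090 in wt/flox and from 82967317 to 103970706 in wt/wt. Several features of the libraries moved with genotype. The names of the deposited flox/flox and wt/flox tables carry a batch mark that those of wt/wt lack, so genotype and that mark cannot be told apart in comparisons against wt/wt, whereas flox/flox against wt/flox lies within the mark. Reads in no gene made up 34.5% to 40.0% in flox/flox, 31.7% and 37.3% in wt/flox and 22.2% to 28.1% in wt/wt. Alignments to several places made up 3.92% to 4.32% in flox/flox, 4.98% and 4.89% in wt/flox and 8.97% to 10.9% in wt/wt. Summed markers of hepatocytes (7 genes, albumin among them) reached 154053 to 230455 CPM (sense counts scaled to a common, TMM-adjusted library size) in flox/flox, 160472 and 144407 in wt/flox and 95323 to 110680 in wt/wt, so the defining markers of the labelled cells were present in every library. Markers of sinusoidal endothelium (8 genes) summed to 60.4 to 131.5 CPM in flox/flox, 76.6 and 68.1 in wt/flox and 118.8 to 189.9 in wt/wt. Of these 8, 3 were called lower in flox/flox than in wt/wt, as were 1 of 4 tested cholangiocyte and 1 of 3 tested neutrophil markers. That stands beside 14.7% of all genes lower. Of the 7 hepatocyte markers 2 were called higher, beside 15.1% of all genes. Kupffer cell and monocyte markers (8 genes) summed to 51.4, 34.5 and 119.9 CPM in flox/flox, 33.7 and 35.6 CPM in wt/flox and 61.0, 59.9 and 250 CPM in wt/wt, so wt/wt library 3 stood apart. Neutrophil markers did so too, at 6.91 CPM in wt/wt library 3 and 0.188 to 0.436 CPM in the other libraries of any group. The part of these differences in the results below was not tested, and in bulk RNA fewer cells of a type and less RNA per cell cannot be told apart. Labels give the flox/flox genotype to 3 libraries, although the description of the design speaks of 2, and each of the 3 was kept. The reads of Xist and of Y-linked genes went against the labelled sex in flox/flox libraries 1 and 2, so results are also given without both. By those reads flox/flox library 1 was male and libraries 2 and 3 were female. Both wt/flox libraries were male, as were wt/wt libraries 1 and 2, and wt/wt library 3 was female. Sex and genotype were thus partly mixed in flox/flox against wt/flox, and wholly so there without both libraries of contradicted sex. Adar, counted over the whole gene and so no check of the floxed exons, had 49.4, 35.9 and 42.1 CPM in flox/flox, 22 and 31.8 CPM in wt/flox and 28.1, 30.0 and 53.6 CPM in wt/wt. The flox/flox and wt/wt libraries overlapped, and the fitted log2 change of Adar between them was 0.19 (SE 0.27, adjusted p = 0.626, edgeR).

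The members were short and thinly covered. Their hairpins spanned 56 to 136 bases with a median of 84. The median member averaged 0.234 CPM over the 8 libraries, the lowest 0.0939 CPM, and 18 members reached a mean of at least 1 CPM on the TMM scale. The 10 members of highest mean CPM held 37.6% of the member reads. By position in GENCODE M21 on GRCm38, 95 of the 136 members (69.9%) lay in an intron of a gene on the same strand, 20 in an exon of one, 14 between genes, 4 opposite an exon and 3 opposite an intron. All 136 passed the filter on low counts.

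Most of the 10 members of highest CPM were intronic. Divided by hairpin length, the highest was Mir568 at 55.7 CPM per kilobase over all libraries, followed by Mir7212 at 46.3, Mir1948 at 45.6 and Mir122 at 43.8. The order differed by group: Mir122 was highest in flox/flox at 69.2 CPM per kilobase against 59.5 for Mir568, Mir1948 was highest in wt/flox at 93.7, and Mir568 was highest in wt/wt at 38.2. Mir568 lies in an exon of Zbtb20, the gene of a transcriptional repressor in hepatocytes, and had 6.58, 4.25 and 3.98 CPM in flox/flox, 7.35 and 5.31 CPM in wt/flox and 4.47, 3.23 and 1.83 CPM in wt/wt. The flox/flox and wt/wt libraries of Mir568 overlapped (log2 fold change 0.64, SE 0.34, adjusted p = 0.197, edgeR). Mir1948, in an intron of Ttc39c, varied widely within every group, with 6.73, 0.876 and 2.69 CPM in flox/flox, 6.21 and 9.71 CPM in wt/flox and 2.89, 1.29 and 0.593 CPM in wt/wt. Mir7212, in an intron of the endoplasmic reticulum turnover receptor gene Retreg1, had 3.96, 1.98 and 3.27 CPM in flox/flox, 6.39 and 3.41 CPM in wt/flox and 0.903, 0.338 and 2.32 CPM in wt/wt. Neither passed the test in any comparison, although the wt/flox libraries of both lay above every wt/wt library.

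Mir122, the precursor of the most abundant microRNA of hepatocytes, had 3.86, 5.89 and 3.94 CPM in flox/flox, 1.56 and 1.73 CPM in wt/flox and 1.96, 2.13 and 2.06 CPM in wt/wt. All flox/flox libraries lay above all others, and wt/flox lay just below wt/wt. The level rose in flox/flox against wt/wt, with a log2 fold change of 1.15 (SE 0.21, adjusted p = 0.00668, edgeR quasi-likelihood test), and without both libraries of contradicted sex the change was 0.94 (adjusted p = 0.0448). Its annotated host transcript was not tested.

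**Figure D1:**
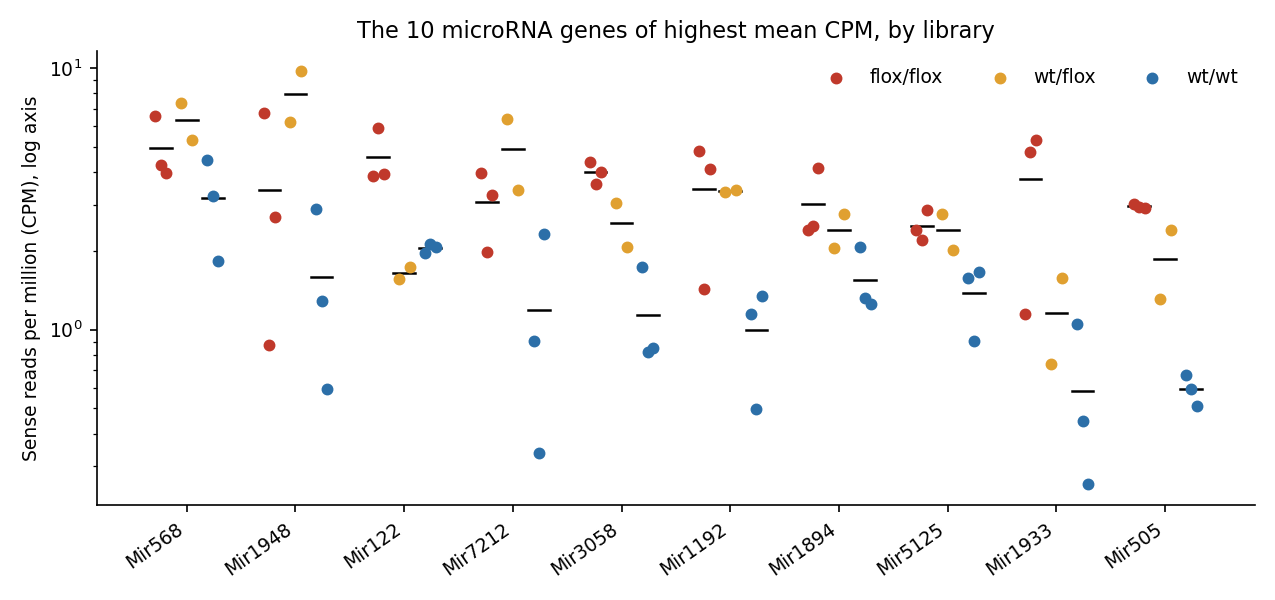
Sense CPM (log axis) of the 10 microRNA genes of highest mean CPM. Each point is a library, flox/flox left (red, n = 3), wt/flox centre (amber, n = 2) and wt/wt right (blue, n = 3), and bars are group means; CPM are not divided by length. For Mir122 the wt/flox libraries, at 1.56 and 1.73 CPM, sit with wt/wt, whereas for Mir505, at 1.31 and 2.40 CPM, they sit between the other groups.

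Against wt/wt, microRNA genes were higher in flox/flox far more often than lower. At an adjusted p under 0.05 (edgeR quasi-likelihood test, Benjamini-Hochberg over 14728 genes), 48 of the 136 members were higher and 4 were lower, whereas of all genes tested 29.9% were called, 15.1% higher and 14.7% lower. The fitted log2 fold change was above 0 in 125 members and below 0 in 11, from -3.72 to 3.35, with a median of 1.32 against 0.02 over all genes tested. In 83 members every flox/flox library lay above every wt/wt library and in 5 every one lay below, beside 23% and 22% of all genes. Without both libraries of contradicted sex, which leaves flox/flox library 3 alone, the median was 1.35 against 0.02 over all genes tested. Calls in that fit assume that this library varies like the other groups. Fewer members passed without flox/flox library 2 (29), flox/flox library 3 (28), wt/wt library 1 (30) or wt/wt library 2 (22), beside 20.7%, 23.9%, 19.1% and 15% of all genes. DESeq2 called 54, beside 35.5% of all genes. The minimum of 80 reads summed over all libraries can favour genes that are high in flox/flox. Of the 71 members with at least 80 reads in wt/flox and wt/wt alone, 30 were higher and 4 lower with a median of 1.15, and of the 65 others 18 were higher and 0 lower. Those others include Mir7651, Mir1843a, Mir1904, Mirlet7c-1, Mir1942 and Mir5128. Over 19 settings, leaving aside a minimum of 1 CPM, 12 members were called every time, namely Mir101b, Mir122, Mir186, Mir1942, Mir1968, Mir1b, Mir3073a, Mir505, Mir5128, Mir6353, Mir682 and Mir7-1. Of the other calls described below, those of Mir3058, Mir6236 and Mir703 were kept without each single library, whereas those of Mir1192, Mir1904, Mir1933, Mir3968, Mir5123, Mir3473g, Mir762, Mir15a and Mir16-1 were lost without at least 1 library (highest adjusted p between 0.05 and 0.103). With library size as the only scaling, which moved the median of all genes to -0.31, 24 members were higher and 5 lower with a median of 1.00, and of all genes 744 were higher and 4097 lower, against 2231 and 2169 with TMM.

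The calls were spread unevenly over hairpin locations. Of the 95 members in a same-strand intron, 44 were higher and 0 lower, with a median log2 fold change of 1.54. Of the 20 in a same-strand exon, 2 were higher and 0 lower, with a median of 0.43. Of the 14 between genes, 1 was higher and 2 were lower, with a median of 0.65. The 7 members opposite another gene gave 1 higher and 2 lower. Called higher were thus 46.3% of the members in introns, 10% in exons and 7.14% between genes, beside 15.1% of all genes higher and 14.7% lower. The share in exons and between genes did not exceed that of all genes. The difference between locations was itself not tested. Genes of other kinds with fewer than 500 exonic bases, 160 in number, had a median of 0.27, with 26 higher and 33 lower.

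**Figure D2:**
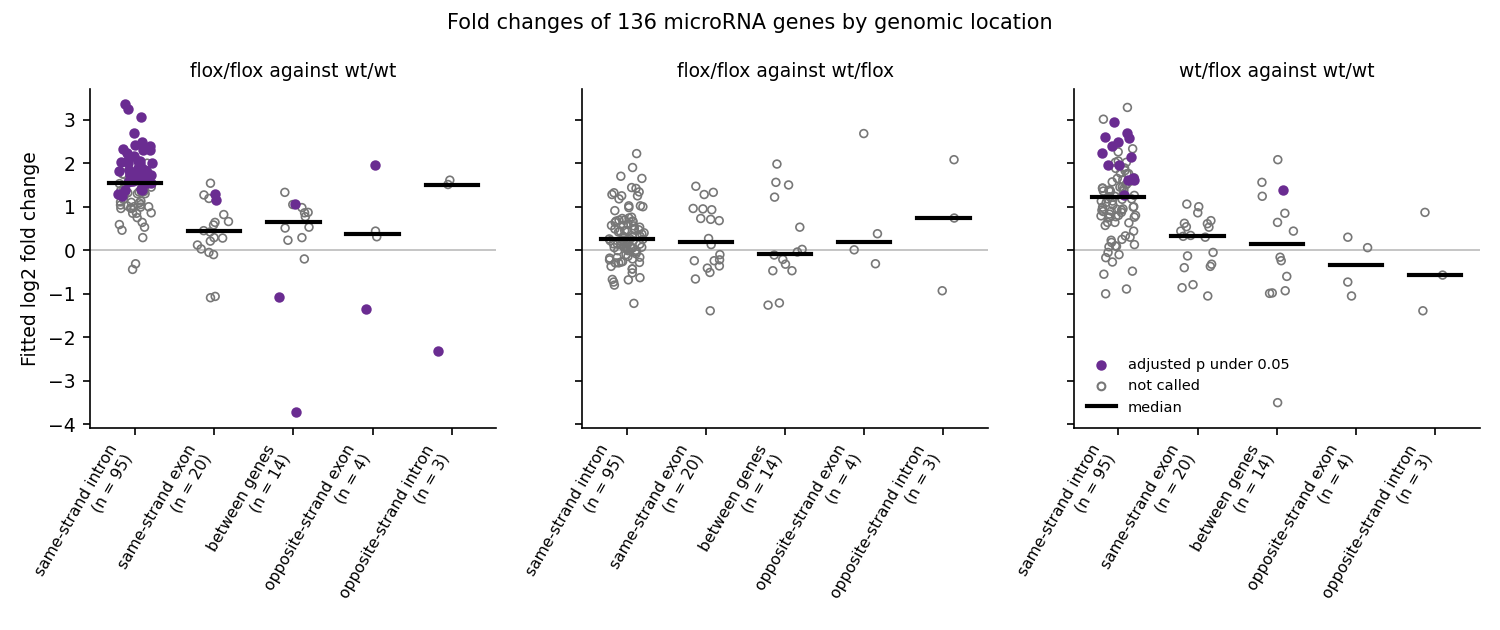
Fitted log2 fold change of each of the 136 microRNA genes (1 point each) by genomic location, in 3 comparisons; filled points have an adjusted p under 0.05 and black bars are medians. In the left and right panels, both against wt/wt, the intronic genes sit highest (medians 1.54 and 1.23), whereas in the centre panel their median is 0.25 and no gene is filled.

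For most intronic members the fitted change lay above that of the host gene. For 94 pairs of an intronic member and a tested host, the member's log2 fold change in flox/flox against wt/wt was above the host's in 90. The median difference was 1.33. With library size as the only scaling, it was above in 89 pairs, with a median difference of 1.34. Scaling shifts member and host alike, so that repeat could not test the excess. The hosts themselves, 91 genes, had a median of 0.28. By the TMM scaling 25 of them (27.5%) were higher and 9 lower, beside 15.1% and 14.7% of all genes. By library size alone 10 were higher and 24 lower, beside 5.05% and 27.8% of all genes. Among the 44 members that rose, the host was called higher for 13, lower for 3 and not called for 28. Across the 94 pairs the fold changes of member and host were almost unrelated, with a Pearson correlation of 0.07, a description over genes that share libraries. For 15 exonic pairs the member was above the host in 10, with a median difference of 0.13. The members, but not the hosts, were chosen by a minimum of summed reads, which can favour genes that are high in flox/flox. Part of the excess of member over host can come from that choice. The 71 members of any location that reached the minimum without flox/flox reads had a median of 1.15. The count of pairs was not repeated for them, so the size of that part was not tested.

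**Figure D3:**
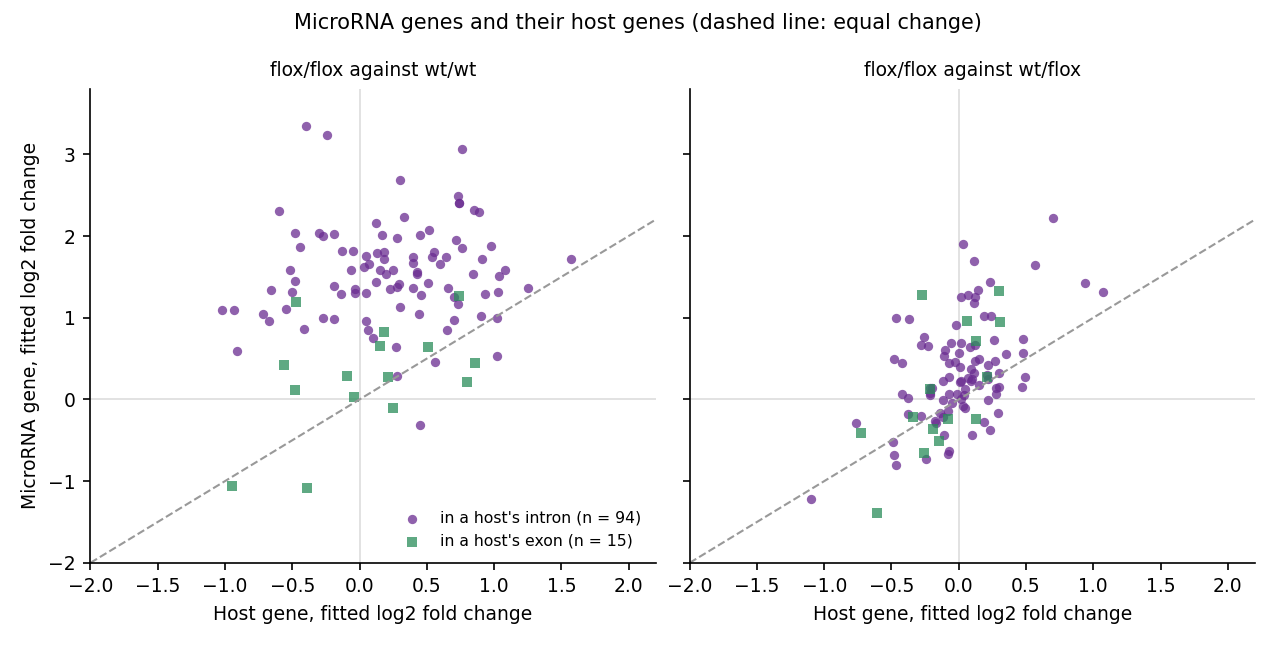
Fitted log2 fold change of the microRNA gene against that of its host gene, for 94 intronic pairs (purple circles) and 15 exonic pairs (green squares). Against wt/wt (left) 90 of the 94 intronic pairs lie above the dashed line of equal change. Against wt/flox (right) 68 do, and the cloud lies close to the line. The microRNA genes, but not the hosts, were chosen by a read minimum that can favour genes high in flox/flox.

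Summed over those 94 intronic members, the level was 65.8, 57.2 and 70.3 CPM in flox/flox, 58.5 and 62.2 CPM in wt/flox and 27.7, 15.7 and 25.3 CPM in wt/wt. Per 1000 reads of their hosts, that was 6.07, 5.60 and 6.84 reads in flox/flox, 5.27 and 6.13 in wt/flox and 3.17, 1.79 and 3.07 in wt/wt. The flox/flox and wt/flox libraries overlapped, and all 5 lay above every wt/wt library. The members between genes summed to 5.70, 5.02 and 4.66 CPM in flox/flox, 6.06 and 6.15 CPM in wt/flox and 5.71, 5.13 and 6.96 CPM in wt/wt, with overlap between flox/flox and wt/wt. The share of reads in no gene moved with the intronic sum, between 40.0% in the flox/flox library with the highest sum and 22.2% in the wt/wt library with the lowest. Whether that share holds reads in introns is not known, as the gene models used for counting were not given. Its part in the result was not tested.

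**Figure D4:**
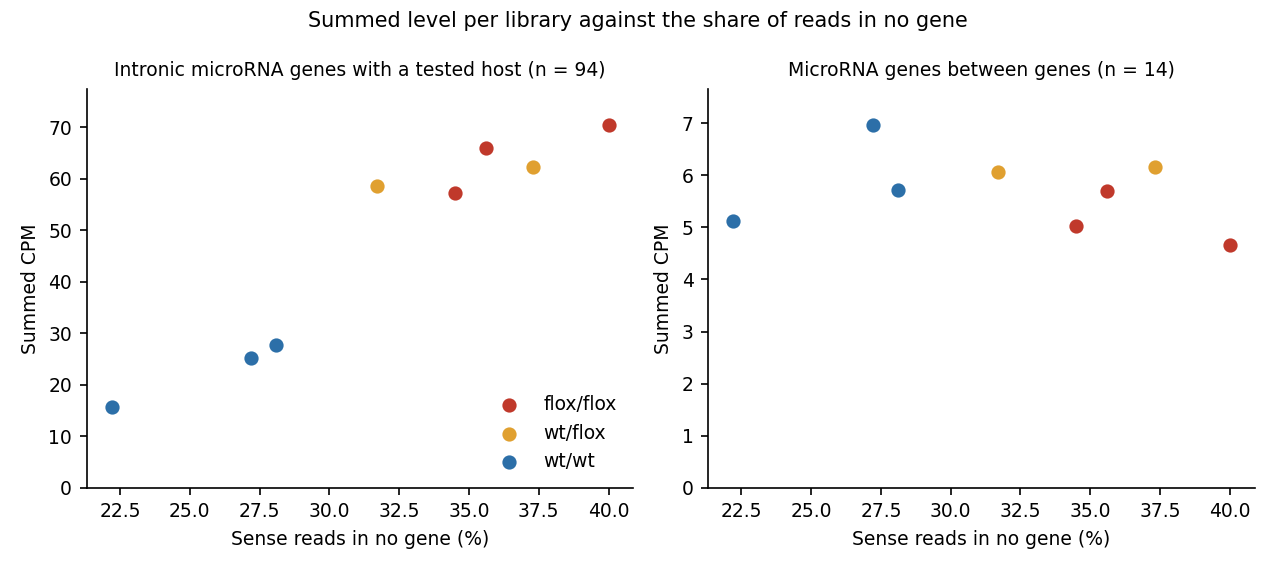
Summed CPM per library against the share of sense reads in no gene, for 94 intronic microRNA genes with a tested host (left) and 14 between genes (right); each point is a library of flox/flox (red), wt/flox (amber) or wt/wt (blue). On the left the wt/wt libraries sit at 15.7 to 27.7 CPM with the lowest shares; on the right the sums of all libraries lie between 4.66 and 6.96 CPM.

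Mir505, an intronic member, had little spread within flox/flox and within wt/wt. Its level was 3.03, 2.93 and 2.91 CPM in flox/flox, 1.31 and 2.40 CPM in wt/flox and 0.670, 0.592 and 0.511 CPM in wt/wt. The groups did not overlap, and wt/flox lay between the others. The log2 fold change of flox/flox against wt/wt was 2.32 (SE 0.28, adjusted p = 0.00198, edgeR).

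Several hairpins rose while their host did not. Mir7-1, in an intron of the RNA-binding protein gene Hnrnpk, had 0.933, 1.03 and 1.12 CPM in flox/flox, 1.11 and 0.838 CPM in wt/flox and 0.264, 0.203 and 0.283 CPM in wt/wt. Its log2 fold change in flox/flox against wt/wt was 2.04 (SE 0.29, adjusted p = 0.00301, edgeR), whereas Hnrnpk fell by 0.48 (adjusted p = 0.022). Hnrnpk had 166, 146 and 143 CPM in flox/flox and 202, 222 and 212 CPM in wt/wt. Mir6353, in an intron of Pid1, had 1.85, 3.31 and 2.23 CPM in flox/flox, 2.45 and 2.26 CPM in wt/flox and 0.558, 0.262 and 0.675 CPM in wt/wt. It rose by 2.31 on the log2 scale (SE 0.39, adjusted p = 0.00523), whereas Pid1 fell by 0.60 (adjusted p = 0.0433), with 73.7, 72.2 and 51.6 CPM in flox/flox and 80.6, 109 and 109 CPM in wt/wt. For both hairpins the flox/flox and wt/flox libraries overlapped, and all lay above wt/wt. Mir186, in an intron of Zranb2, had 0.733, 0.858 and 0.713 CPM in flox/flox, 0.620 and 0.852 CPM in wt/flox and 0.162, 0.186 and 0.219 CPM in wt/wt. It rose by 2.01 (SE 0.31, adjusted p = 0.00367), beside a change of 0.17 in Zranb2 that missed the threshold (adjusted p = 0.342). Mir7-1 and Mir186 are named here after their values were seen. The comparison of each member's change with its host's was not tested.

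Mir101b, in an intron of Rcl1, whose product acts in ribosomal RNA processing, had the smallest adjusted p of the members in wt/flox against wt/wt. It had 1.38, 1.32 and 1.75 CPM in flox/flox, 2.48 and 2.67 CPM in wt/flox and 0.507, 0.380 and 0.584 CPM in wt/wt, and none of the groups overlapped. Both groups with a floxed allele were above wt/wt, with log2 fold changes of 1.59 in flox/flox (SE 0.26, adjusted p = 0.00444, edgeR) and 2.39 in wt/flox (SE 0.28, adjusted p = 0.0101). The flox/flox level was below the wt/flox level by a log2 fold change of -0.80 that missed the threshold (SE 0.27, adjusted p = 0.558). Rcl1 rose in wt/flox by 0.62 (adjusted p = 0.0365) and differed by 0.15 in flox/flox (adjusted p = 0.436), each against wt/wt.

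Of the members of largest fold change, the ones with the fewest reads rest on single-digit counts. Mir7651, in an intron of Zmiz2, had 19, 18 and 19 reads in flox/flox, 11 and 14 in wt/flox and 4, 0 and 1 in wt/wt. Mir1843a, in an intron of Dcaf5, had 18, 19 and 25 reads in flox/flox, 8 and 16 in wt/flox and 2, 0 and 4 in wt/wt. Their log2 fold changes of 3.35 (SE 0.84, adjusted p = 0.0206) and 3.24 (SE 0.81, adjusted p = 0.0207) in edgeR depend on how a count of 0 is treated, and both genes reached the minimum of 80 reads through their flox/flox reads, which favours a low level in wt/wt. Mir7651 lost its call without wt/wt library 3 and Mir1843a without wt/wt library 1, and without both libraries of contradicted sex neither passed (adjusted p = 0.117 and 0.0969). Mir5128, in an intron of Strbp, had 42, 27 and 75 reads in flox/flox, 25 and 23 in wt/flox and 6, 2 and 8 in wt/wt, at a log2 fold change of 3.07 (SE 0.59, adjusted p = 0.00807). Mir1942, in an intron of the plectin gene Plec, had 20, 28 and 51 reads in flox/flox, 23 and 24 in wt/flox and 8, 2 and 6 in wt/wt, at a log2 fold change of 2.49 (SE 0.57, adjusted p = 0.0152). Mir5128 and Mir1942 also reached the minimum of 80 reads only with their flox/flox reads. In Mir5128 and Mir1942 the host was called higher as well, by 0.76 and 0.73.

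Some of the higher members differed within flox/flox. Mir1933, in an intron of Ugp2, which makes the sugar donor for glycogen, had 1.15, 4.79 and 5.32 CPM in flox/flox, 0.737 and 1.58 CPM in wt/flox and 1.05, 0.448 and 0.256 CPM in wt/wt. Flox/flox library 1 lay close to wt/wt library 1, and the log2 fold change was 2.69 (SE 0.72, adjusted p = 0.026, edgeR). Mir1904, in an intron of the phosphodiesterase gene Pde4d, had 0.178, 0.197 and 0.607 CPM in flox/flox, 0.0819 and 0.0568 CPM in wt/flox and 0.0710, 0.0676 and 0.0456 CPM in wt/wt. Its log2 fold change of 2.40 (SE 0.61, adjusted p = 0.0219) came with 16, 22 and 80 reads in flox/flox and 7, 8 and 5 in wt/wt. Mir1904 reached the minimum of 80 reads only with its flox/flox reads, which favours a low level in wt/wt. Mir1192, in an intron of the glucocorticoid-induced factor gene Klf9, had 4.81, 1.43 and 4.10 CPM in flox/flox, 3.36 and 3.42 CPM in wt/flox and 1.15, 0.499 and 1.34 CPM in wt/wt, at a log2 fold change of 1.79 (SE 0.51, adjusted p = 0.0321). Mir3058, in an intron of Nudt4, was steadier at 4.37, 3.61 and 4.01 CPM in flox/flox, 3.04 and 2.07 CPM in wt/flox and 1.74, 0.820 and 0.849 CPM in wt/wt, at a log2 fold change of 1.82 (SE 0.33, adjusted p = 0.00668), although without both libraries of contradicted sex it just missed the threshold (adjusted p = 0.0502). Mir1894, in an intron of Ppp1r10, and Mir5125, in an intron of the spliceosome gene Srrm2, missed the threshold at log2 fold changes of 0.96 (adjusted p = 0.0509) and 0.85 (adjusted p = 0.057).

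The 4 members that fell lie outside any same-strand host. Mir682, between genes, had 1.21, 1.28 and 1.06 CPM in flox/flox, 1.71 and 1.56 CPM in wt/flox and 2.37, 2.75 and 2.33 CPM in wt/wt, and the groups were ordered without overlap. The log2 fold change of flox/flox against wt/wt was -1.07 (SE 0.20, adjusted p = 0.00696, edgeR). Mir6236, also between genes, had 0.122, 0.0268 and 0.121 CPM in flox/flox, 0.175 and 0.0284 CPM in wt/flox and 0.853, 0.567 and 2.17 CPM in wt/wt. Its log2 fold change of -3.72 (SE 0.83, adjusted p = 0.0143) was the furthest below 0 of all members in that comparison. Mir703, opposite an intron of Cfap299, had 0.111, 0.0536 and 0.121 CPM in flox/flox, 0.222 and 0.142 CPM in wt/flox and 0.487, 0.380 and 0.575 CPM in wt/wt, at a log2 fold change of -2.32 (SE 0.45, adjusted p = 0.00807). Mir762, opposite an exon of Bcl7c, had 0.300, 0.268 and 0.326 CPM in flox/flox, 0.328 and 0.412 CPM in wt/flox and 0.832, 0.820 and 0.648 CPM in wt/wt, at a log2 fold change of -1.36 (SE 0.29, adjusted p = 0.0124). Without both libraries of contradicted sex, Mir682 stayed past the threshold (-1.23, adjusted p = 0.0406), and Mir6236, Mir703 and Mir762 did not (adjusted p = 0.118, 0.0756 and 0.113). The share of alignments to several places was lower in the same groups, and its part in these falls was not tested.

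Within the batch mark, no member passed the test between flox/flox and wt/flox. edgeR called 0 of the 136 members and 0% of all genes, with a smallest adjusted p of 0.558, while 11 members and 1240 genes had an unadjusted p under 0.05. With sex from the reads as a term, 6 members and 525 genes had one, and 0 were called. The median log2 fold change of the members was 0.24 against 0.04 over all genes, with 90 members above 0 and 46 below. In 28 members all flox/flox libraries lay above both wt/flox libraries and in 7 they lay below, beside 14.2% and 13.1% of all genes. The intronic members had a median of 0.25, and 68 of the 94 pairs had the member above its host, with a median difference of 0.21 and a Pearson correlation of 0.50 across pairs. DESeq2 called 3 members, beside 0.509% of all genes.

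The 3 that DESeq2 called were Mir122, Mir3073a and Mir3968. Mir122 had a log2 fold change of 1.47 in flox/flox against wt/flox in edgeR (SE 0.25, adjusted p = 0.558) and of 1.45 in DESeq2 (SE 0.28, adjusted p = 0.000192). Mir3073a, in an intron of the asparaginase gene Aspg, had 1.1, 1.3 and 1.53 CPM in flox/flox, 0.409 and 0.426 CPM in wt/flox and 0.426, 0.355 and 0.566 CPM in wt/wt. The wt/flox libraries lay within the wt/wt range, and all flox/flox libraries lay above them. Mir3073a differed by 1.65 from wt/flox in edgeR (SE 0.35, adjusted p = 0.558) and by 1.62 in DESeq2 (SE 0.38, adjusted p = 0.0104), and rose by 1.54 against wt/wt (SE 0.30, adjusted p = 0.00794, edgeR). Aspg differed in the same direction, by 0.84 against wt/wt (adjusted p = 0.0293) and by 0.57 against wt/flox (adjusted p = 0.558). Mir3968, opposite an exon of Trim80, had 0.522, 1.55 and 1.65 CPM in flox/flox, 0.187 and 0.199 CPM in wt/flox and 0.325, 0.135 and 0.502 CPM in wt/wt. It differed by 2.68 from wt/flox in edgeR (SE 0.72, adjusted p = 0.558) and by 2.65 in DESeq2 (SE 0.69, adjusted p = 0.0344), and flox/flox library 1 lay close to wt/wt library 3. Its change against wt/wt was 1.95 (SE 0.58, adjusted p = 0.0388, edgeR), and without both libraries of contradicted sex that call was lost (adjusted p = 0.0562). Mir148a, between genes and the precursor of a microRNA known for repressing the LDL receptor, had 14, 17 and 40 reads in flox/flox, 5 and 3 in wt/flox and 12, 13 and 7 in wt/wt. Its log2 fold changes were 1.98 against wt/flox (SE 0.62, adjusted p = 0.558) and 1.05 against wt/wt (SE 0.49, adjusted p = 0.139).

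**Figure D5:**
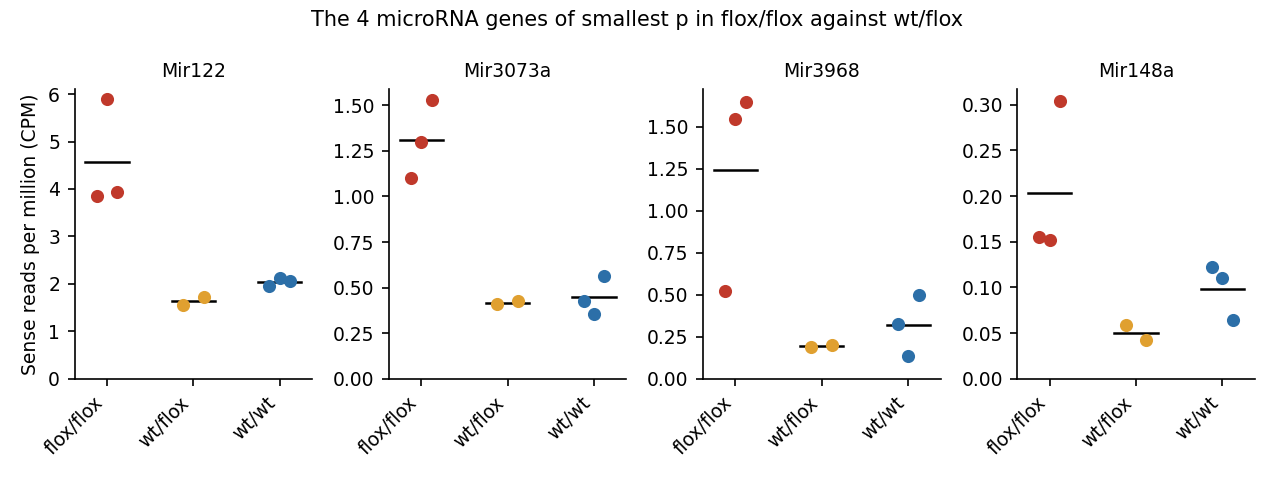
Sense CPM by library of the 4 microRNA genes with the smallest unadjusted p in flox/flox against wt/flox; each point is a library, bars are group means and each panel has its own linear axis from 0. In Mir122 and Mir3073a all 3 flox/flox libraries (3.86 to 5.89 and 1.1 to 1.53 CPM) lie above all libraries of the other groups.

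Between wt/flox and wt/wt, 15 of the 136 members were higher and 0 lower (edgeR), beside 12.5% of all genes called, 6.58% higher and 5.89% lower. The median log2 fold change of the members was 0.91 against -0.06 over all genes. In 74 members both wt/flox libraries lay above all wt/wt libraries and in 10 below, beside 25.8% and 29.3% of all genes. Of the 15, 14 were intronic, and the intronic median was 1.23 against 0.33 in exons and 0.14 between genes. Without wt/flox library 1, wt/flox library 2 or wt/wt library 2, 0 members passed, while without wt/wt library 1 there were 3. Without flox/flox library 2, 9 passed. Of all genes, 2.68% were called without wt/wt library 1, 0.259% without wt/wt library 2 and 8.43% without flox/flox library 2. With library size alone 10 members were higher and 4 lower, beside 1.91% of all genes higher and 21.8% lower. DESeq2 called 28 members beside 22.4% of all genes. The comparison shares the wt/wt libraries with flox/flox against wt/wt.

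Of the members called in wt/flox, Mir5123 and Mir3473g differed between the libraries of that group. Mir5123, in an intron of B4galt1, had 73, 76 and 139 reads in flox/flox, 48 and 159 in wt/flox and 20, 10 and 28 in wt/wt. Its log2 fold change was 2.95 in wt/flox (SE 0.65, adjusted p = 0.0294, edgeR) and 2.23 in flox/flox (SE 0.61, adjusted p = 0.0282), each against wt/wt, and without both libraries of contradicted sex the flox/flox call was lost (adjusted p = 0.0827). Mir3473g, in an intron of Sppl2a, had 64, 64 and 73 reads in flox/flox, 55 and 88 in wt/flox and 20, 6 and 28 in wt/wt (log2 fold change in wt/flox 2.48, SE 0.61, adjusted p = 0.0385), a call that was lost without both libraries of contradicted sex (adjusted p = 0.065). Mir1b, in an intron of the Notch pathway ubiquitin ligase gene Mib1, had 0.699, 0.724 and 0.728 CPM in flox/flox, 0.866 and 0.710 CPM in wt/flox and 0.152, 0.152 and 0.228 CPM in wt/wt. Both groups with a floxed allele lay near each other and above wt/wt, with log2 fold changes of 2.01 in flox/flox (SE 0.31, adjusted p = 0.00395) and 2.14 in wt/flox (SE 0.34, adjusted p = 0.0137).

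Of the liver-enriched microRNA genes listed, 19 of 33 in the tables were members, and 3 of those 19 were higher in flox/flox against wt/wt with 0 lower, a share close to the 15.1% of all genes called higher. They were Mir122, Mir101b and Mir30a, and the list's median was 0.99. Mir30a, between genes, had 0.555, 0.938 and 0.964 CPM in flox/flox, 0.936 and 1.11 CPM in wt/flox and 0.507, 0.347 and 0.319 CPM in wt/wt (log2 fold change of flox/flox against wt/wt 1.07, SE 0.34, adjusted p = 0.048, edgeR). That call of Mir30a was lost in 7 of the 8 fits that left out a library, all but the one without flox/flox library 1, and without both libraries of contradicted sex (adjusted p = 0.0818). Mir21a, whose microRNA is induced in liver injury, lies in an exon of Vmp1 and had 2.79, 1.59 and 1.02 CPM in flox/flox, 2.11 and 2.67 CPM in wt/flox and 0.984, 1.06 and 1.91 CPM in wt/wt, with overlap between flox/flox and wt/wt (adjusted p = 0.444). Mir192 and Mir194-2, neighbours whose microRNAs mark liver, gut and kidney epithelium, had log2 fold changes of 0.51 (adjusted p = 0.493) and -0.20 (adjusted p = 0.738). Mir22, Mir101a, Mir27b, Mir23b and Mir24-1 had 0 reads in every library, each of which allows up to 3.

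Of the 5 let-7 members, whose microRNAs restrain growth genes, 2 rose, beside 15.1% higher among all genes, and both calls were lost without both libraries of contradicted sex (adjusted p = 0.0548 for Mirlet7c-1 and 0.0821 for Mirlet7d). Leaving out single libraries, Mirlet7c-1 was called in the absence of flox/flox library 1 or wt/wt library 1 and in no other such fit, and Mirlet7d lost its call without flox/flox library 3, wt/wt library 1 or wt/wt library 2. Mirlet7c-1 rose by 2.41 in flox/flox against wt/wt (SE 0.68, adjusted p = 0.0312, edgeR) and Mirlet7d by 1.30 (SE 0.32, adjusted p = 0.0204). Mirlet7d had 1.01, 0.724 and 0.971 CPM in flox/flox, 0.655 and 0.469 CPM in wt/flox and 0.335, 0.296 and 0.465 CPM in wt/wt, without overlap between any of the groups. Mirlet7a-1 and Mirlet7f-1, within 10000 bases of Mirlet7d and in exons of the same transcript 6720427I07Rik, had log2 fold changes of -0.05 (adjusted p = 0.929) and 1.54 (adjusted p = 0.0998). Mirlet7a-1 had 19, 18 and 19 reads in flox/flox, 9 and 7 in wt/flox and 16, 20 and 22 in wt/wt, with overlap between flox/flox and wt/wt. Mirlet7c-1, in an intron of Mir99ahg, had 6, 20 and 28 reads in flox/flox, 20 and 10 in wt/flox and 5, 2 and 2 in wt/wt. Mir98, in an intron of Huwe1, had a log2 fold change of 0.97 that missed the threshold (adjusted p = 0.108).

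The 3 members of the AGCAGCA seed all rose in flox/flox against wt/wt. Mir15a and Mir16-1, known in human leukaemia for repressing BCL2, lie next to each other in an intron of Dleu2. Mir16-1 had 0.244, 0.599 and 0.615 CPM in flox/flox, 0.316 and 0.341 CPM in wt/flox and 0.142, 0.169 and 0.183 CPM in wt/wt. It rose by 1.56 (SE 0.43, adjusted p = 0.03, edgeR), and Mir15a by 1.54 (SE 0.45, adjusted p = 0.0357), beside 0.43 in Dleu2 (adjusted p = 0.246). The calls of Mir16-1 and Mir15a were each lost in 7 of the 8 fits that left out a library, all but the one without flox/flox library 1. Without both libraries of contradicted sex, the log2 fold changes were 1.89 for Mir16-1 and 1.91 for Mir15a. Of the 4 members matched to the GUAAACA seed, Mir30a rose. Mir30c-1, Mir30e and Mir30c-2 had log2 fold changes of 1.35, 1.30 and 0.58 that missed the threshold (adjusted p = 0.134, 0.0754 and 0.256, edgeR). Mir30b had no matched sequence and is not counted there. Mir103-2 and Mir107, in introns of the pantothenate kinase genes Pank2 and Pank1, had 1.62 (adjusted p = 0.0648) and 0.99 (adjusted p = 0.251).

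MicroRNA genes of other liver cells were near the limit of detection. Of 9 endothelial microRNA genes in the tables, 2 were members. Mir221 had 0.122, 0.214 and 0.197 CPM in flox/flox, 0.129 and 0.227 CPM in wt/flox and 0.112, 0.135 and 0.0456 CPM in wt/wt, and Mir126b, opposite an intron of the endothelial gene Egfl7, had 0.233, 0.188 and 0.114 CPM in flox/flox, 0.152 and 0.0568 CPM in wt/flox and 0.0507, 0.110 and 0.00913 CPM in wt/wt. Neither passed the test (adjusted p = 0.248 and 0.149 in flox/flox against wt/wt). Of the myeloid and lymphoid list 0 of 9 were members, with 29 reads over all libraries, of the stellate and mesenchymal list 0 of 6 with 22 reads, and of the imprinted Dlk1-Dio3 list 0 of 15 with 22 reads. The 5 cholangiocyte genes had 0 reads. Of 8 precursors listed under ADAR editing or mirtrons, 0 were members, with 176 reads in all. They were Mir142, Mir376a, Mir376b, Mir22, Mir151, Mir99a, Mir455 and Mir27a. The members themselves were not sorted by these traits, so mirtrons or edited precursors can be among them.

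Strand separated several members from their neighbours. In 6 members the antisense reads outnumbered the sense reads. Mir135a-1, opposite an exon of the glycerate kinase gene Glyctk and in an intron of D030055H07Rik, had 824 sense and 20353 antisense reads over the 8 libraries, and Mir6340, Mir328 and Mir762, opposite exons of Rab22a, Elmo3 and Bcl7c, had 229, 203 and 407 sense against 2310, 1737 and 1334 antisense reads. Antisense reads made up 6.43% to 7.78% of all gene reads per library. Mir3073b had 83 sense and 631 antisense reads, and its antisense strand is the strand of Mir3073a. Its sense reads numbered 11, 15 and 32 in flox/flox, 3 and 3 in wt/flox and 4, 5 and 10 in wt/wt (log2 fold change against wt/wt 1.51, adjusted p = 0.068, edgeR). The sixth, Mir3473a, had 87 sense and 360 antisense reads. Whether sense reads of such members come from the other strand was not tested.

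Of the genes that make and use microRNAs, those of the effector complex gave most of the calls, by a count that depends on the scaling. Of 51 pathway genes tested, 13 were higher and 5 lower in flox/flox against wt/wt (edgeR), with 10 higher and 0 lower among 20 of the effector complex, beside 15.1% of all genes higher and 14.7% lower. With library size alone 4 pathway genes were higher and 12 lower, and of the effector complex 3 were higher and 2 lower, beside 5.05% and 27.8% of all genes. Ago3, an Argonaute protein gene, had 25.8, 25.5 and 21.4 CPM in flox/flox, 20.9 and 23.8 CPM in wt/flox and 12.1, 11.1 and 11.4 CPM in wt/wt. Its log2 fold changes against wt/wt were 1.07 in flox/flox (SE 0.12, adjusted p = 0.00159) and 0.95 in wt/flox (SE 0.13, adjusted p = 0.0104). Xrn1, the exonuclease that degrades decapped messenger RNA, rose by 0.79 in flox/flox (adjusted p = 0.00245), the Microprocessor helicase gene Ddx17 by 0.89 (adjusted p = 0.00363) and the deadenylase subunit gene Pan3 by 0.82 (adjusted p = 0.00411). The GTPase gene Ran, which powers export of the hairpin, fell by 0.95 (adjusted p = 0.00807), with 48.2, 46.6 and 32.0 CPM in flox/flox and 73.2, 94.1 and 77.6 CPM in wt/wt. Trp53, Khsrp and Ncbp2 fell by 0.72, 0.59 and 0.60 (adjusted p = 0.00488, 0.00628 and 0.0381). In wt/flox against wt/wt 7 pathway genes were higher and 1, Trp53, was lower, beside 6.58% and 5.89% of all genes. In flox/flox against wt/flox 0 were called. With library size alone, wt/flox against wt/wt gave 1 pathway gene higher and 8 lower, beside 1.91% and 21.8% of all genes.

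The core processing genes did not pass the test in any comparison. Drosha had 13.5, 12.6 and 13.6 CPM in flox/flox, 11.7 and 12.3 CPM in wt/flox and 12.6, 11.2 and 10.4 CPM in wt/wt, a log2 fold change of 0.22 in flox/flox against wt/wt (SE 0.11, adjusted p = 0.174, edgeR). Dgcr8 differed by 0.22 (SE 0.12, adjusted p = 0.199), Xpo5 by 0.25 (SE 0.17, adjusted p = 0.289) and Dicer1 by 0.37 (SE 0.16, adjusted p = 0.118). Dicer1 had 81.5, 77.0 and 58.7 CPM in flox/flox, 76.6 and 77.5 CPM in wt/flox and 62.0, 59.5 and 47.1 CPM in wt/wt, with flox/flox library 3 below wt/wt library 1. Ago2, the Argonaute that can cut its target, differed by 0.40 (SE 0.17, adjusted p = 0.109).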

How the data were processed

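Sense and antisense read counts per gene symbol were deposited by the authors, unnormalised, 1 table per library, per the file headers. Builds GRCm38 and mm10 and the tool DESeq2 are named in the submitters' processing notes, whereas aligner, counter and gene models were not given in the sources used here. Entries that name no gene stayed out of library sizes and tests. They held 22.2% to 40.0% of reads in no gene and 0.317% to 0.668% ambiguous reads per library, with alignments to several places tallied apart.

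Sense counts were tested with edgeR 4.0.16 (R 4.3.3, limma 3.58.1), using its quasi-likelihood test, TMM scaling, filterByExpr (14728 genes left) and Benjamini-Hochberg adjustment at 0.05, two-sided. All 8 libraries entered a single fit on genotype. Sex was no term, since Xist and Y-linked reads contradict 2 labels. SE is the absolute log2 fold change over the square root of F. The script was checked on simulated counts. Where 0 reads were seen, up to 3 remain possible with 95% confidence, by counting error alone. Each of the 7 pairs of libraries within a group differed by more than sampling noise. The labels give mice of different ages or sexes, so libraries count as separate animals.

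Positions came from GENCODE M21 (133 members) or RefSeq, sequences from RefSeq on GRCm38.p6; members without a matched sequence were Mir1948, Mir122, Mir6400, Mir1b, Mir378a, Mir328, Mir30b, Mir1942, Mir6539 and Mir709. The alternatives were RLE and library size scaling, other filters, DESeq2 1.42.0, sex terms, a replicate block, 2-group fits, sense plus antisense counts, and leaving out each library. The fit without both libraries of contradicted sex and the per-list counts under each scaling were added after seeing the data.

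Members named are the 10 of highest mean CPM, up to 8 called members per direction and comparison of largest fold change without overlap (the 4 of smallest p where fewer than 4 passed), and the 2 of highest mean CPM per list. Pathway genes named are up to 4 per direction and comparison, with Drosha, Dgcr8, Dicer1, Ago2 and Xpo5. The members and lists were chosen with earlier results of these data known.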

Additional observations from a re-analysis of the deposited data

Results flagged for a closer look

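Antisense reads entered the results above only in the alternative that adds them to the sense reads. In the 15 members with at least 80 of them, every flox/flox library lay above every wt/wt library in 5 (33.3%) and below in 3 (20%), beside 26.3% and 18.6% of the 12273 genes with as many antisense reads. These shares are near those of all genes, and the differences were not tested. The 3 below were Mir682, Mir762 and Mir6340, and the 5 above follow. Values are antisense CPM, mean ± SD, with n = 3 in flox/flox, 2 in wt/flox and 3 in wt/wt. Mir3073b had 1.26 ± 0.220 in flox/flox, 0.392 ± 0.00821 in wt/flox and 0.430 ± 0.113 in wt/wt, on the strand of Mir3073a. Mir3073a had 0.171 ± 0.0752 in flox/flox, 0.0389 ± 0.00531 in wt/flox and 0.0580 ± 0.0288 in wt/wt, on the strand of Mir3073b. Mir3473a had 0.633 ± 0.196 in flox/flox, 0.601 ± 0.127 in wt/flox and 0.183 ± 0.0352 in wt/wt. Mir5125 had 0.406 ± 0.153 in flox/flox, 0.333 ± 0.00891 in wt/flox and 0.141 ± 0.0203 in wt/wt. Mir328 had 2.35 ± 0.157 in flox/flox, 2.08 ± 0.0960 in wt/flox and 1.93 ± 0.169 in wt/wt, opposite the exon of Elmo3.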

How the results depend on the processing

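No call of a named member turned to the other direction. Over 1929 repeats for the 35 named members, 1741 kept their side of the threshold, 150 lost the call and 38 gained it. In flox/flox against wt/wt, where 52 members and 4400 genes were called, 19 members were called in each fit that left out a library. Members called were 29 with library size alone, 10 with a mean CPM of at least 1 (17 members tested, on a scale without TMM), 54 with DESeq2, 39 with labelled sex as a term, 39 with sex from the reads, 22 to 47 without a library each (22 without wt/wt library 2, 28 without flox/flox library 3, 29 without flox/flox library 2 and 30 without wt/wt library 1) and 19 without both libraries of contradicted sex. All genes called were 2195 to 4722 without a library each (2195 without wt/wt library 2, 2807 without wt/wt library 1) and 2915 without both. Of the genes tested there, 32.9% were called with library size alone, 40.5% with a mean CPM of at least 1 and 35.5% with DESeq2. With labelled sex as a term 24.8% were called, and with sex from the reads 29.1%. In flox/flox against wt/flox, DESeq2 called 3 members and 75 genes, against 0 and 0. In wt/flox against wt/wt, where 15 members and 1837 genes were called, the members were 4 with a mean CPM of at least 1, 28 with DESeq2, 0 to 16 without a library each and 9 without both. All genes there were 3498 with library size alone (281 higher, 3217 lower, against 969 and 868), 3296 with DESeq2 and 0 to 2525 without a library each, with 0 without either wt/flox library, 38 without wt/wt library 2, 393 without wt/wt library 1 and 1001 without wt/wt library 3. Where an arm was left with a single library, it was assumed to vary like the others. The causes were not tested.

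Replicate numbers run with age (11, 9 and 7 weeks), so a block on the number is also a block on age. Deviations correlated between -0.00188 and 0.43 in same-numbered libraries and between -0.491 and 0.353 in others. These ranges overlap and cannot decide whether the libraries are paired by number, which was not tested. With the number as a block, 51 members and 4794 genes were called in flox/flox against wt/wt, 0 and 0 in flox/flox against wt/flox, and 11 members and 1439 genes in wt/flox against wt/wt. Depth limits the members: the median averaged 0.234 CPM, and 0 reads allow up to 3.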
